A study of Oryza sativa with 3 samples.

Results

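The cellulose synthase-like (CSL) genes of rice (Oryza sativa) were examined in 3 tissues, leaf blade, node and stem, with 1 paired-end total RNA library each. CSL genes were taken as the rows with a single gene identifier whose deposited description names a cellulose synthase-like protein or begins with CSLA, CSLC, CSLD, CSLE, CSLF or CSLH. They numbered 33 of 54532 genes found with a single identifier in any library: 9 CSLA, 6 CSLC, 5 CSLD, 2 CSLE, 8 CSLF and 3 CSLH genes. Nodes I and II supplied the node library; nodes are the joints of the grass culm where leaves attach and vascular bundles branch. All plants grew at 29 °C with 12 h of light and 12 h of dark in a greenhouse or growth chamber, and no treatment or altered genotype is named for any of them. The sources used here give neither the cultivar, nor the plants' age, nor the number of plants behind each library.

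CSL proteins are membrane glycosyltransferases related to cellulose synthases, and most are thought to polymerise the backbones of wall polysaccharides other than cellulose. CSLA proteins make mannan and glucomannan, and CSLC proteins make the glucan backbone of xyloglucan, as shown mainly in Arabidopsis. CSLF and CSLH proteins make mixed-linkage glucan, a hallmark of grass walls that is abundant in growing tissue. CSLD proteins are known for roles in tip-growing cells and in plant stature, and the product of CSLE proteins is not settled.

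Levels are given in FPKM, fragments scaled to transcript length and library size, which is meant to allow comparison between genes and between tissues. The length used for a gene can differ between libraries, which limits the comparison between tissues, as set out below. The files list an interval beside each value, read here as counting error. Implied depth, worked out from those intervals to the nearest 10000 fragments, was 39960000 in node, 43160000 in stem and 39880000 in leaf blade. With 1 library per tissue there was no replicate check, so no difference below carries a p-value, and differences may lie within the spread between plants. Of the listed markers of each tissue, 2 of 3 for leaf blade, 3 of 3 for node and 3 of 4 for stem were highest in the tissue they mark. The chlorophyll-binding gene CAB2R was instead higher in stem than in leaf blade, at 2741 against 1999 FPKM, and the secondary wall cellulose synthase CESA4 was at 21.1 FPKM in node against 18.0 in stem. The 3 leaf blade markers together summed to 476 FPKM in node, 3443 in stem and 6699 in leaf blade, and no marker was listed at 0. The part of these tissue differences in the CSL values was not tested.

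CSL transcripts were most abundant in the node. Summed over the 32 CSL genes with a single identifier in all 3 libraries, the level was 345 FPKM in node (interval 341 to 349), 148 in stem (146 to 151) and 106 in leaf blade (104 to 108). The node sum was thus 3.27 times that of leaf blade and 2.33 times that of stem. CSLE1 is missing from these sums because its leaf blade row was merged with a neighbouring gene, at 60.4 FPKM for both. With CSLE1 added, the sum was 359.7 FPKM in node and 166.4 in stem, and between 105.6 (none of the merged row) and 166.1 (all of it) in leaf blade. The node sum was then from 2.17 to 3.41 times that of leaf blade, and the order of stem and leaf blade is uncertain. In bulk tissue, fewer cells of a type and less RNA per cell cannot be told apart.

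The tissues also differed in which subfamilies made up the sum of the 32 genes. CSLA genes held 45.3% of CSL FPKM in node, 16.8% in stem and 52.2% in leaf blade. CSLH held 12.6%, 47.6% and 23.4% in the same order, which made the single abundant CSLH gene the main CSL transcript of the stem. CSLC held 23.1%, 19.9% and 6.34%, and CSLF held 13.3%, 9.69% and 1.07%.

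**Figure D1:**
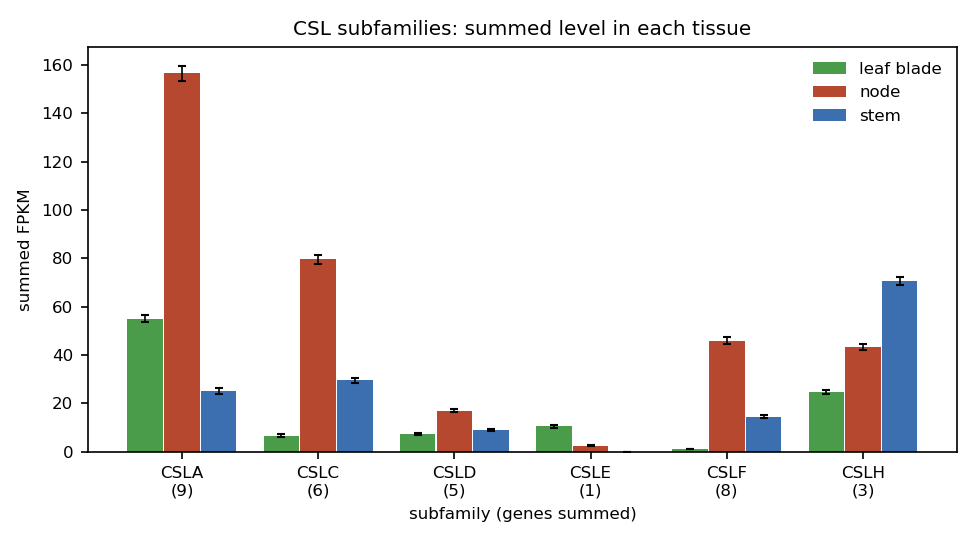
Summed FPKM of each CSL subfamily (horizontal axis, number of genes summed in brackets) in the leaf blade, node and stem libraries, with bars from 0 and error bars for the counting interval of the sum. CSLA, CSLC, CSLD and CSLF sums were highest in node, the CSLH sum was highest in stem at 70.6 FPKM, and the CSLE sum, of CSLE6 alone, was highest in leaf blade.

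The number of CSL genes at 1 FPKM or more was 21 of 33 rows in node, 16 of 33 in stem and 10 of 32 in leaf blade. Among the 32 genes found in all libraries, 62.5% reached 1 FPKM in node, 46.9% in stem and 31.2% in leaf blade, against 35.0%, 31.8% and 32.1% of the 51597 genes of the series found in all 3. In all, 12 CSL genes stayed under 1 FPKM in every tissue: CSLA4, CSLA9, CSLC3, CSLD1, CSLD5, CSLF1, CSLF2, CSLF3, CSLF4, CSLF7, CSLH2 and CSLH3. Of these, CSLA9, CSLD5 and CSLF7 were listed at 0 in all 3 libraries.

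**Figure D2:**
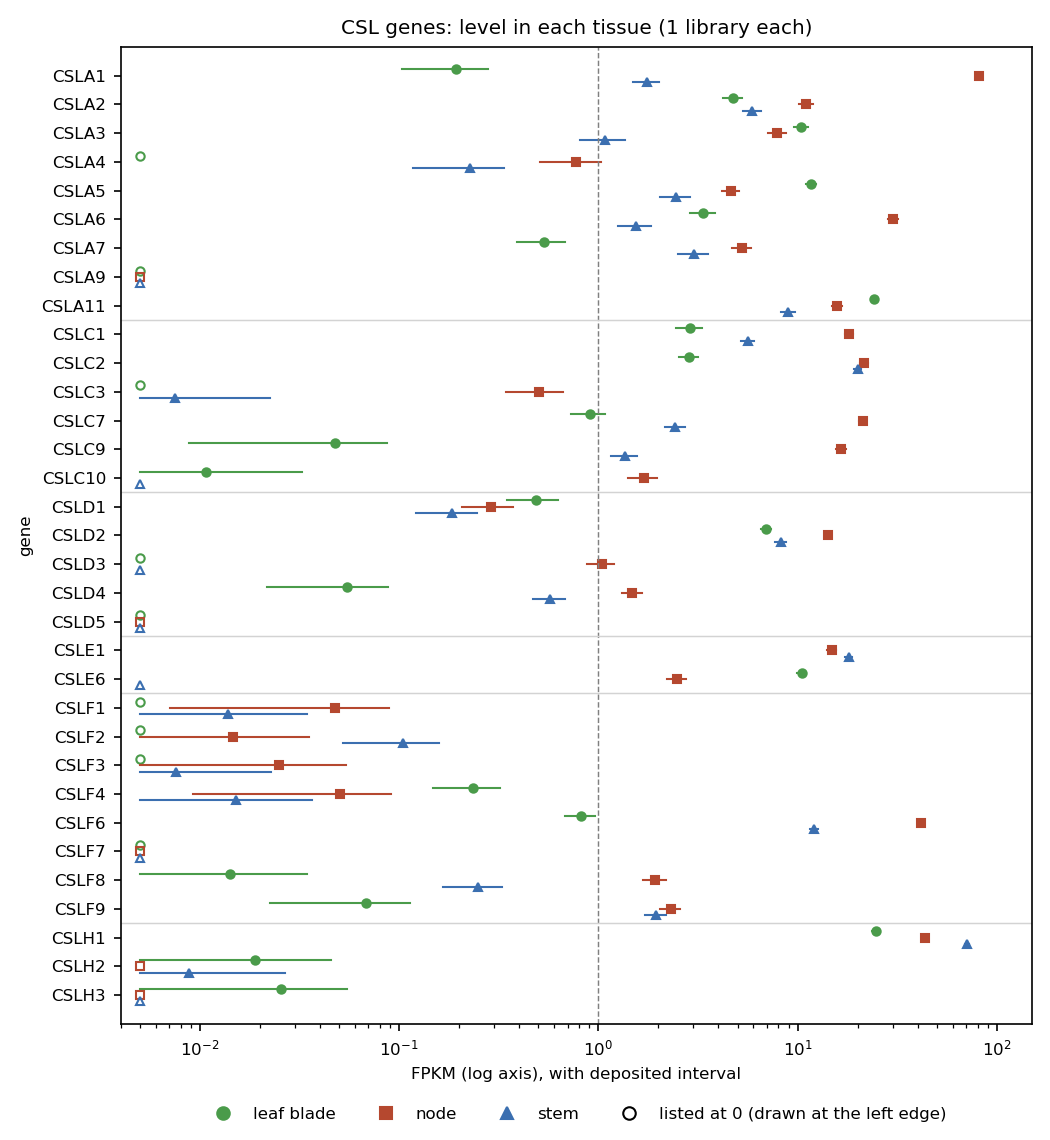
FPKM of each of the 33 CSL genes on a log axis in leaf blade (circles), node (squares) and stem (triangles), with lines for the deposited interval, open symbols for values listed at 0 and a dashed line at 1 FPKM. CSLA1 in node (81.0 FPKM) and CSLH1 in stem (70.6 FPKM) were the highest values, and CSLE1 has no leaf blade point because its row there was merged with a neighbour.

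Of the genes present in all libraries, 20 had 1 FPKM or more in some tissue and entered the comparisons, on the log2(FPKM + 1) scale, on which a difference of 2 is 4-fold. This scale understates differences of genes with low values. A total of 8 of the 20 were higher by 4-fold or more in node than in leaf blade, where 12.3% of all 20097 genes compared were, and none was lower, where 7.29% were. In stem versus leaf blade 2 were higher and 2 lower, where 6.43% and 6.52% of all genes were, so that both counts were close to this background. In node versus stem 5 were higher and none lower, where 6.82% and 2.3% of all genes were. A gene could pass the filter through the tissue where it was high. Taking the filter away cannot change these counts, because a gene under 1 FPKM throughout cannot differ by 2 on this scale. Only the number of genes grows, so the unfiltered shares do not check the filter. The counts were then 8, 2 and 5 higher of 32, beside 4.79%, 2.5% and 2.66% of 51597 genes. Those lower were 0, 2 and 0, beside 2.84%, 2.54% and 0.897%. The median CSL difference over the 20 was 1.47 in node versus leaf blade, 1.13 in node versus stem and 0.44 in stem versus leaf blade, against 0.13, 0.16 and -0.02 over all genes compared. Over the 32 genes without the filter the medians were 0.81, 0.65 and 0.02, against 0 over all genes in each comparison. The comparisons share libraries and are not independent.

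**Figure D3:**
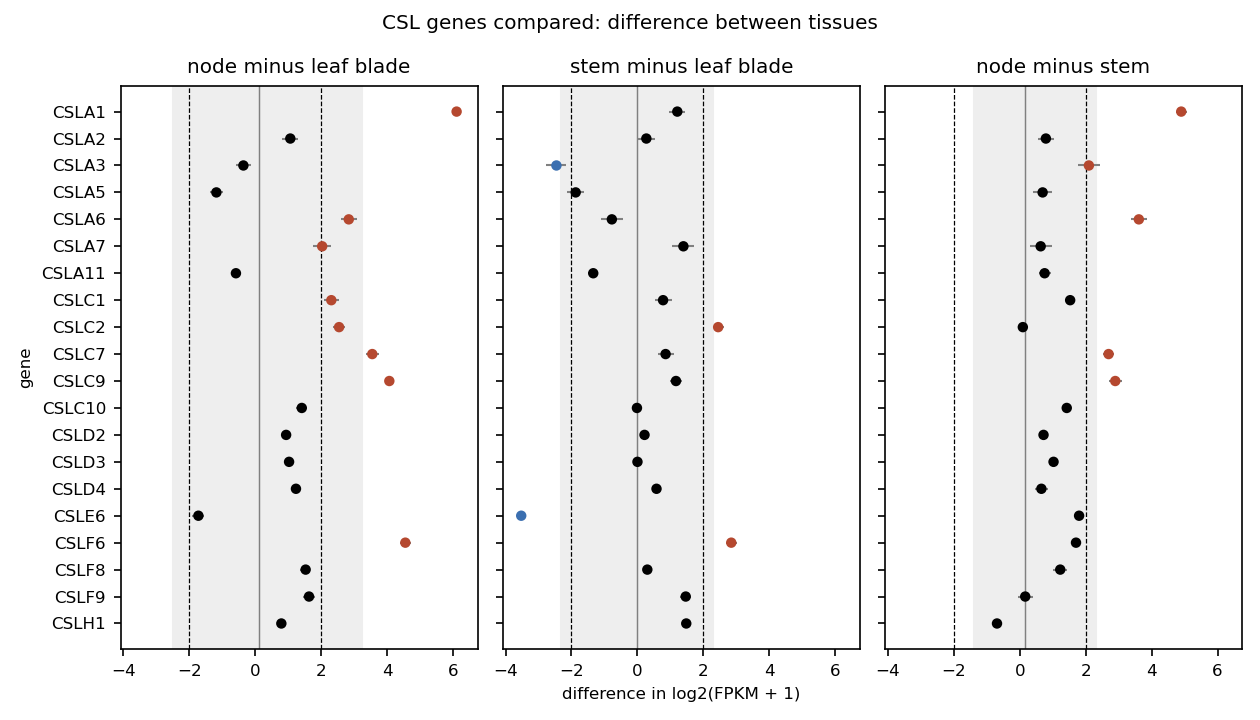
Difference in log2(FPKM + 1) of the 20 CSL genes compared, in node minus leaf blade, stem minus leaf blade and node minus stem, with horizontal lines for the counting interval, dashed lines at 4-fold, a grey line at the median of all 20097 genes and a grey band from their percentile 5 to 95. Red points are higher and blue points lower by 4-fold or more; CSLA1 stands at 6.10 in node minus leaf blade and 4.90 in node minus stem.

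The highest tissue was the node for 15 of the 20 genes, the leaf blade for 4 (CSLA3, CSLA5, CSLA11 and CSLE6) and the stem for 1 (CSLH1). Over all genes compared, 40.9% were highest in node, 36.8% in leaf blade and 22.4% in stem. CSLC10, CSLD3, CSLD4 and CSLF8 reached 1 FPKM in node alone, so their highest tissue was fixed by the filter. Without it, 19 of the 29 CSL genes above 0 in any tissue were highest in node, 8 in leaf blade and 2 in stem, beside 38.7%, 38.5% and 22.8% of 32861 genes. For 12 of the 20 genes, CSLC2 and CSLF9 among them, the order ran from node through stem to leaf blade. The share of all genes with this order was not computed, so this count has no background beside it. The interval of the highest tissue overlapped that of the next for CSLC2 and CSLF9, whose levels in node and stem could not be ordered at this depth. A gene was said to predominate in a tissue when both other tissues were lower by 4-fold or more. CSLA1, CSLA6, CSLC7 and CSLC9 predominated in node, which is 4 of 20 beside 5.26% of all genes compared, and no CSL gene predominated in leaf blade (4.56%) or stem (0.921%).

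The mannan synthase subfamily, CSLA, held both the largest node excess and most of the genes that were highest in leaf blade. CSLA1 (LOC_Os02g09930, chromosome 2, 5151783 to 5158917) had 81.0 FPKM in node (79.2 to 82.9), 1.75 in stem (1.49 to 2.01) and 0.192 in leaf blade (0.104 to 0.280). It was the most abundant CSL transcript of the node, above 91.9% of the genes compared in that library and ranked 13 among CSL genes in stem. Its difference was 6.10 in node versus leaf blade (5.97 to 6.25) and 4.90 in node versus stem (4.73 to 5.07). CSLA1 alone made up 51.8% of CSLA FPKM in node.

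CSLA6 (LOC_Os02g51060, chromosome 2, 31228384 to 31232497 in node) had 30.1 FPKM in node, 3.36 in leaf blade and 1.54 in stem. Its difference was 3.61 in node versus stem and 2.84 in node versus leaf blade, and unlike CSLA1 it had its lowest value in stem. CSLA7 (LOC_Os07g43710) had 5.27 FPKM in node, 3.03 in stem and 0.536 in leaf blade, a difference of 2.03 (1.76 to 2.30) in node versus leaf blade that lay at the 4-fold bound. With the libraries rescaled without their 50 most abundant genes the CSLA7 difference was 1.96, just under the bound. CSLA2 (LOC_Os10g26630) had 11.0 FPKM in node, 5.92 in stem and 4.74 in leaf blade, within 4-fold throughout.

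The remaining CSLA genes above 1 FPKM ran the other way. CSLA11 (LOC_Os08g33740, chromosome 8, 21077397 to 21086651 in node) had 24.2 FPKM in leaf blade (23.2 to 25.1) against 15.8 in node and 8.94 in stem, and it was the most abundant CSLA transcript of leaf blade and of stem. CSLA5 (LOC_Os03g26044) had 11.7 FPKM in leaf blade against 4.60 in node and 2.46 in stem. CSLA3 (LOC_Os06g12460) had 10.4 FPKM in leaf blade against 7.91 in node and 1.08 in stem. All 3 were ordered leaf blade, node, stem from high to low, and CSLA3 was past 4-fold in 2 comparisons, lower in stem than in leaf blade (difference -2.46) and higher in node than in stem (2.10). The interval of the latter, 1.78 to 2.43, spans the 4-fold bound. CSLA4 stayed at 0.769 FPKM or below in every tissue, and its locus overlapped LOC_Os03g07340, at 15.9 FPKM, in the leaf blade library, where CSLA4 was listed at 0. The locus of CSLA9 overlapped LOC_Os06g42030, at 2.91 FPKM in leaf blade and more elsewhere. In stem that of CSLA6 overlapped a row with no identifier at 0.405 FPKM. The labels do not say whether the counting used strand, and reads from overlapping loci may have gone to either one.

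The xyloglucan backbone subfamily, CSLC, was higher in node than in leaf blade. Of the 5 CSLC genes compared, a small list, 4 were higher by 4-fold or more, beside 12.3% of all genes compared. The sum of all 6 CSLC genes was 79.6 FPKM in node, 29.5 in stem and 6.69 in leaf blade. CSLC2 (LOC_Os09g25900, chromosome 9, 15546366 to 15549567 in node) had 21.5 FPKM in node (20.5 to 22.5), 20.03 in stem (19.2 to 20.8) and 2.86 in leaf blade (2.54 to 3.18). It held 68.0% of CSLC FPKM in stem but 26.97% in node, where the levels of 4 CSLC genes lay close together.

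The other 3 abundant CSLC genes had their stem levels well below their node levels. CSLC7 (LOC_Os05g43530, chromosome 5, 25300749 to 25304668) had 21.3 FPKM in node, 2.44 in stem and 0.903 in leaf blade. CSLC9 (LOC_Os03g56060, chromosome 3, 31930541 to 31934624) had 16.5 FPKM in node, 1.35 in stem and 0.0479 in leaf blade, the last resting on 6 implied fragments. CSLC1 (LOC_Os01g56130, chromosome 1, 32318613 to 32322673 in node) had 18.2 FPKM in node, 5.63 in stem and 2.87 in leaf blade. Differences in node versus leaf blade were 3.55 for CSLC7, 4.06 for CSLC9, 2.31 for CSLC1 and 2.54 for CSLC2. In node versus stem they were 2.69, 2.90, 1.53 and 0.09 in the same order, so CSLC7 and CSLC9 were past 4-fold there and CSLC1 and CSLC2 were not. CSLC10 (LOC_Os07g03260) was listed at 0 in stem and was low elsewhere, with a node level of 1.69 FPKM and a leaf blade level of 0.0108 FPKM. CSLC3 reached 0.504 FPKM in node.

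Among the mixed-linkage glucan synthases, CSLF6 and CSLH1 had nearly all of the transcript. CSLF6 is the main mixed-linkage glucan synthase known from rice mutants. CSLF6 (LOC_Os08g06380, chromosome 8, 3544163 to 3550661) had 41.6 FPKM in node (40.3 to 42.9), 12.0 in stem (11.5 to 12.6) and 0.818 in leaf blade (0.676 to 0.959). It made up 90.5% of CSLF FPKM in node, 83.8% in stem and 72.1% in leaf blade. The ratio of FPKM was 3.45 in node versus stem, 50.9 in node versus leaf blade and 14.7 in stem versus leaf blade, and the last 2 were past 4-fold on the log2(FPKM + 1) scale, at 4.55 and 2.84.

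CSLH1 (LOC_Os10g20090, chromosome 10, 10089450 to 10095059) had another order of tissues than CSLF6. Its counterpart in barley makes mixed-linkage glucan. CSLH1 had 70.6 FPKM in stem (68.9 to 72.3), 24.7 in leaf blade (23.7 to 25.7) and 43.4 in node (42.2 to 44.7), and was the single gene of the 20 compared with its highest value in stem. It ranked first among CSL genes in stem and second in node, where its interval overlapped that of CSLF6. In leaf blade it was above the other CSL genes with a row of their own, with an interval that overlapped that of CSLA11, but CSLE1 could not be ranked there. The differences were -0.69 in node versus stem and 1.48 in stem versus leaf blade, both within 4-fold. The related genes CSLH2 and CSLH3 lay at 0.0254 FPKM or below in every tissue.

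The CSLF genes other than CSLF6 were low. CSLF9 (LOC_Os07g36610) had 2.31 FPKM in node, 1.94 in stem and 0.0678 in leaf blade. CSLF8 (LOC_Os07g36630) had 1.93 FPKM in node, 0.248 in stem and 0.0142 in leaf blade, the last resting on 2 implied fragments. CSLF4, at 0.0503 FPKM in node, 0.0152 in stem and 0.234 in leaf blade, had its highest value in leaf blade, and these values rest on 6, 2 and 29 implied fragments.

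Of the 33 CSL genes, 12 lay within 100 kb of another CSL gene, in 4 clusters. The largest, on chromosome 7 from 21901505 to 22019184, spans 118 kb and holds CSLF9, CSLF8, CSLF2, CSLF1, CSLF4 and CSLF3 in that order, with 8 other rows between them, mostly described as retrotransposon or expressed proteins. Within it the first 2 genes, CSLF9 and CSLF8, were the only ones to reach 1 FPKM, and both did so in node. The other 4 stayed at 0.234 FPKM or below in all tissues. Implied fragments of CSLF1 and CSLF2 were not whole in some libraries (5.50 for CSLF1 in node, 15.8 for CSLF2 in stem), and whether fragments were divided among similar genes was not tested.

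**Figure D4:**
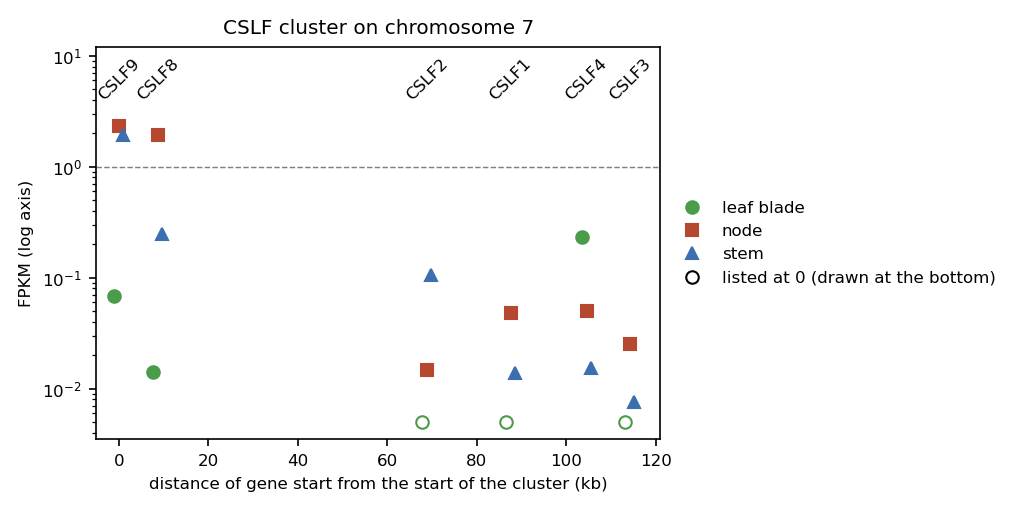
FPKM (log axis) of the 6 CSLF genes of the chromosome 7 cluster against the distance of each gene's start from the start of the cluster in kb, in leaf blade (circles), node (squares) and stem (triangles), with open symbols for values listed at 0 and a dashed line at 1 FPKM. CSLF9 and CSLF8, at the left end, were above 1 FPKM in node, and the 4 genes to the right stayed at 0.234 FPKM or below.

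Levels of neighbours differed in 2 of the 3 smaller clusters. CSLH1 and CSLF7 lie 98.2 kb from end to end on chromosome 10, and CSLF7 was listed at 0 in all 3 libraries. CSLH2 and CSLH3, on chromosome 4, were both near 0. CSLE1 and CSLE6 lie side by side on chromosome 9 with no other row between them, and their levels ran in opposite orders between node and stem. CSLE6 (LOC_Os09g30130, 18315154 to 18321214) had 10.5 FPKM in leaf blade (9.97 to 11.0) and 2.48 in node (2.22 to 2.75) and was listed at 0 in stem. CSLE1 (LOC_Os09g30120, 18307887 to 18314234) had 18.1 FPKM in stem (17.3 to 18.8) and 14.8 in node (14.04 to 15.6). In leaf blade the CSLE1 row was merged with LOC_Os09g30105, and the merged row had 60.4 FPKM, which cannot be divided between them, so CSLE1 was left out of the counts. An FPKM of 0 may also be a failed estimate, and whether that holds for CSLE6 in stem was not tested.

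CSLD genes were low apart from CSLD2, and on the log2(FPKM + 1) scale, which compresses such low values, the 3 compared were within 4-fold throughout. CSLD2 (LOC_Os06g02180, chromosome 6, 660148 to 665406) had 14.2 FPKM in node (13.7 to 14.8), 8.22 in stem (7.70 to 8.74) and 6.95 in leaf blade (6.58 to 7.32), and made up 83.5% to 92.7% of CSLD FPKM. CSLD4 (LOC_Os12g36890), whose loss in rice gives narrow leaves and dwarf plants, had 1.48 FPKM in node, 0.573 in stem and 0.0545 in leaf blade. As plain ratios of FPKM these were 27.2 in node versus leaf blade and 10.5 in stem versus leaf blade, the leaf blade value resting on 11 implied fragments. CSLD3 (LOC_Os08g25710) had 1.04 FPKM in the node library and was listed at 0 in the other tissues. CSLD1, known for root hair growth in rice, had 0.489 FPKM in leaf blade against 0.288 in node and 0.183 in stem, and its locus overlapped a merged row at 1.87 FPKM in node.

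FPKM depends on the transcript length used in each library, so each difference was also set beside the share of implied fragments, which does not. As plain ratios, all 8 genes higher in node than in leaf blade had a share at least 4 times larger in node, from 5.57 times for CSLC2 to 405 times for CSLA1. All 5 genes higher in node than in stem did as well, from 6.46 times for CSLC9 to 45.7 times for CSLA1. Plain ratios are a laxer measure than the log2(FPKM + 1) scale of the calls. With a constant added to the shares too, as in the closing section, 7 of the 8 stayed past 4-fold and CSLA7 did not. All 5 genes higher in node than in stem stayed past it. The implied lengths differed by more than 1.5 times between libraries for 6 of the 12 genes with 50 or more fragments in every library, namely CSLA5, CSLA7, CSLA11, CSLC1, CSLD2 and CSLF6. CSLC9 fell outside those 12 through its 6 fragments in leaf blade. Its implied length was 1630 in node, on 1077 fragments, and 3080 in stem, on 180. In 2 cases the FPKM and the fragment shares ran in opposite directions. CSLD2 was 1.18 times higher in stem than in leaf blade by FPKM and 1.53 times lower by fragment share. CSLC2 was 1.07 times higher in node than in stem by FPKM and 1.23 times lower by fragment share. These 2 directions are therefore uncertain.

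**Figure D5:**
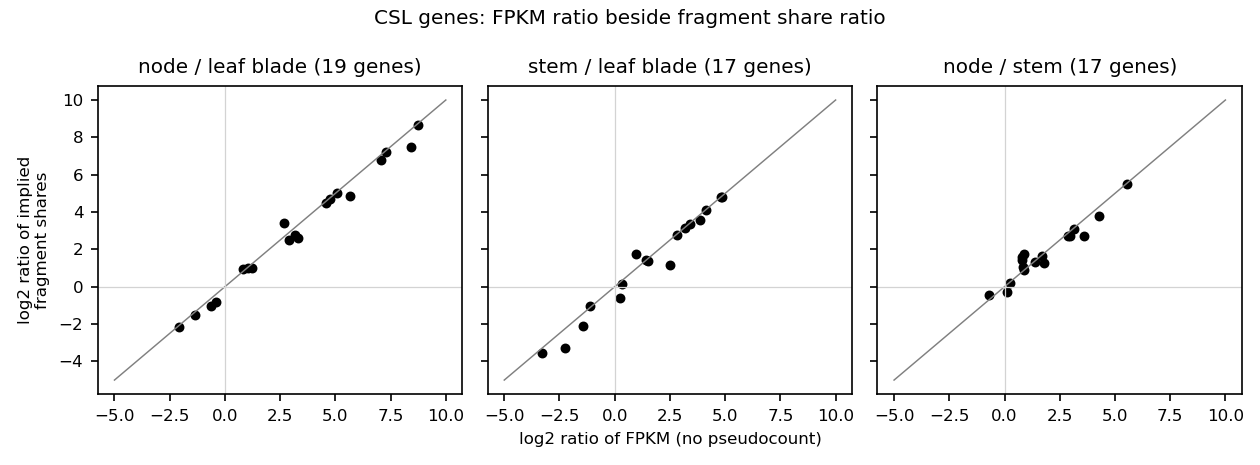
The log2 ratio of implied fragment shares against the log2 ratio of FPKM, both without a pseudocount, for CSL genes compared that were above 0 in both tissues (19 genes in node / leaf blade, 17 in stem / leaf blade and 17 in node / stem), with a line of equality. Points follow the line with some wide gaps: 1.33 for CSLA7 and 1.02 for CSLA5 in stem / leaf blade, and up to 0.95 in node / leaf blade, for CSLC9.

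Other wall genes give the setting of these levels. Their counts at 4-fold are set against the shares of all genes compared given above: 12.3% higher and 7.29% lower in node versus leaf blade, 6.43% and 6.52% for stem versus leaf blade, 6.82% and 2.3% for node versus stem. Of 10 cellulose synthases compared, the nearest relatives of the CSL genes, 9 were higher in node and 6 in stem than in leaf blade, with none lower. Their 11 members summed to 415 FPKM in node, 355 in stem and 17.02 in leaf blade. The CSL sum, without CSLE1, was above the cellulose synthase sum in leaf blade, at 106 FPKM. It was below it in node, at 345, and in stem, at 148. CESA3 (LOC_Os07g24190) was the most abundant, at 118 FPKM in node, 111 in stem and 6.16 in leaf blade.

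Among enzymes that act on the products of CSL proteins, xyloglucan-modifying genes had many members past 4-fold. Family 16 glycosyl hydrolases, which include the enzymes that cut and rejoin xyloglucan, had 11 of 18 members higher in node than in leaf blade and 12 of 18 higher in node than in stem. LOC_Os06g48200 of that family had 760.3 FPKM in node, 43.2 in stem and 2.25 in leaf blade. Among 8 mannan hydrolases compared, 2 were higher in node than in leaf blade and none lower, and in node versus stem 2 were higher and 1 lower, counts too small to set against the background. The 3 most abundant did not all have the same highest tissue. The endo-beta-mannanase OsMan01 (LOC_Os01g47400) had 140.03 FPKM in node, 2.29 in stem and 0.545 in leaf blade, with the node far above both other tissues. OsMan05 (LOC_Os03g61280) was highest in stem, at 37.7 FPKM, with 19.5 in node and 10.5 in leaf blade. OsMan04 (LOC_Os03g61270) was also highest in stem, at 34.1 FPKM against 2.26 in node, a difference of -3.43 in node versus stem. Family 17 hydrolases were listed as the beta-1,3-glucanase family, and whether they act on CSL products was not examined. They had 2 of 18 higher and 3 lower in node versus leaf blade, of which the higher count is near the background. In stem versus leaf blade 5 were lower, where 6.52% of all genes were, and none was higher. In node versus stem 3 were higher, where 6.82% of all genes were, and none was lower.

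Lists of other genes that make, supply, deposit or cleave wall polymers ran from counts near the background to counts above it. Of 6 xyloglucan fucosyl- and galactosyltransferases compared, 2 were higher and 1 lower in node versus leaf blade, and the sum of the list was highest in leaf blade: 68.99 FPKM there, 42.5 in the node library and 38.3 in the stem library. Its most abundant member, the fucosyltransferase LOC_Os02g17534, was at 32.7 FPKM in leaf blade and 0.254 in stem and was listed at 0 in node. LOC_Os02g52560, described likewise, had 23.6 FPKM in leaf blade, 22.6 in stem and 10.04 in node. The KATAMARI1-type galactosyltransferase LOC_Os03g05110 had 12.8 FPKM in node, 3.81 in stem and 1.30 in leaf blade. In node versus leaf blade, exostosin-domain genes had 2 of 26 higher and 1 lower, near the background in both directions. Genes of nucleotide sugar supply had 3 of 17 higher, also near it, and none lower. In stem versus leaf blade 4 of these 17 were higher, where 6.43% of all genes were, and none was lower. Of 9 family 43 glycosyltransferases and related genes of xylan synthesis, 3 were higher and none lower in node versus leaf blade. COBRA genes, which act in cellulose deposition, had 5 of 10 higher, and endoglucanases had 4 of 13 higher, with none lower in either list.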

How the data were processed

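Total RNA of rice leaf blade, nodes I and II, and stem was sequenced as 1 paired-end library each, and tissues were grouped by the labels. Each deposited table holds, per the file headers, the authors' FPKM of every gene between 2 bounds, with the gene's description and locus. Reads were processed with TopHat, per the submitters' processing notes, which give no version. How FPKM was computed, and on which build and annotation, is not given in the sources used here. Members, gene lists and alternatives were chosen with earlier results of these data known.

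Rows with no identifier, or with several merged, were left out. Implied fragments were computed as the square of 2 × FPKM over the upper half-width, which was whole within 0.02 for 49.2%, 49.2% and 49.7% of rows under 200 fragments in leaf blade, node and stem, against 4% by chance, so no count test was run. Differences are of log2(FPKM + 1), among genes that reached 1 FPKM in any tissue, and were called at 4-fold, with no test. The interval of a difference sets one value at its lower and the other at its upper bound, and that of a sum adds half-widths in quadrature. Coordinates are the deposited loci with 1 added to the start, inferred from locus lengths, of which 42.5% in node were divisible by 3 without counting the start base, against 33.3% by chance. Exon structure was not analysed here. None of the 33 identifiers (0) was found in a RefSeq gene table of a different rice assembly. Named genes were every CSL gene at 1 FPKM or more, and at most the 3 most abundant members of each other list. The calling step was tried on simulated counts of abundant genes with changes larger than 4-fold and counting error only. Genes of low level, changes near 4-fold and spread between plants were not simulated. Python 3.11.15, numpy 2.4.6, pandas 2.3.3 and matplotlib 3.10.9 were used.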

Additional observations from a re-analysis of the deposited data

How the results depend on the processing

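No paired analysis was possible because each tissue had 1 library, and none could be left out. Of 48 alternative values, 26 stayed near the main one and 22 moved. All were counts or sums, which have no direction that could reverse. Those that moved include the sums as implied fragments per 1000000, which are in another unit than FPKM. Counts of CSL genes past the threshold stayed within 1.5 times with a 5 FPKM filter, and with rescaling without the 50 most abundant genes. With no filter they could not change, because a gene under 1 FPKM throughout cannot differ by 2 on the log2(FPKM + 1) scale. Those unfiltered counts are among the 26 near values but check nothing. The counts moved with the pseudocount and the threshold, as did the share of all genes past it. With a pseudocount of 0.1 FPKM, 13 genes were higher and 1 lower in node versus leaf blade (19.8% and 11.3% of all genes), 7 higher in stem versus leaf blade (12%) and 9 higher in node versus stem (13.3%). With a pseudocount of 5 FPKM these were 5 higher in node versus leaf blade (5.37%), 0 higher and 0 lower in stem versus leaf blade (2.9% and 2.7%), and 2 higher in node versus stem (2.4%). With a 2-fold threshold, 14 were higher and 2 lower in node versus leaf blade (26.5% and 17.1%), 7 higher and 4 lower in stem versus leaf blade (16.7% and 18%), and 11 higher in node versus stem (19.4%). Fragment shares (implied fragments per 1000000 of the library, with 1 added) gave 12 higher in node versus leaf blade (13.1%), of which 7 were among the 8 by FPKM: CSLA7 was lost, and CSLC10, CSLD3, CSLD4, CSLF8 and CSLF9 were gained. They gave 1 lower there (7.93%), 4 higher and 4 lower in stem versus leaf blade (6.92% and 7.18%), and 8 higher in node versus stem (7.55%). Rescaled, the summed CSL level was 109 FPKM in leaf blade and 331 in node. As implied fragments per 1000000, which are not per length, it was 814 in node, 360.2 in stem and 284 in leaf blade. Genes under 1 FPKM rest on few fragments.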
